A study of Homo sapiens with 24 samples.

Results

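The SLC25 mitochondrial carriers were taken as the genes whose symbol in the deposited tables is SLC25A followed by a number only, which leaves out pseudogenes and antisense genes. They were 48 of the 58780 genes in the table for TPA and 39 of the 13025 genes in the table for DMSO. All 39 are among the 48. SLC25A6 is listed under a pair of identifiers with equal values, because its locus is pseudoautosomal, and was counted once.

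The study lowered PRKCQ, the gene of protein kinase C theta, in the cutaneous T cell lymphoma lines MyLa, from mycosis fungoides, and HuT 78, from Sézary syndrome. Libraries carrying a hairpin against PRKCQ (shPRKCQ) were set against libraries carrying a non-targeting control hairpin (NTC), in cells given TPA at 10 ng/ml or its vehicle DMSO for 24 h. TPA, a phorbol ester, binds and activates protein kinase C itself. Each combination of line, hairpin and treatment has 3 libraries, 24 in all, so each table compares 6 shPRKCQ libraries with 6 NTC libraries of both lines together. Knockdown cells were kept in doxycycline at 1 µg/ml for at least 72 h before treatment. Whether NTC cells also received doxycycline is not given in the sources used here; if they did not, the drug and the hairpin cannot be told apart. For each gene the tables give the log2 fold change with its raw and adjusted p, and no value per library, so neither the level of a carrier in a library nor the spread between libraries is given here. Nor can a response of 1 line be told from a response of both, or fewer expressing cells from less RNA per cell.

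SLC25 proteins form the main family of solute carriers of the inner mitochondrial membrane. Each is built of similar modules that carry a conserved signature motif, and most exchange a metabolite of the matrix for one of the cytosol. They move ATP and ADP, phosphate, amino acids, citric acid cycle intermediates, iron and cofactors. In T cells, activation brings a shift in mitochondrial metabolism and in the use of these exchange routes. A negative fold change was read as lower with the hairpin against PRKCQ, since PRKCQ was at -2.08 in TPA and -2.11 in DMSO in the authors' deposited tables (adjusted p = 1.67e-15 and 5.61e-14).

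The ATP/ADP carriers SLC25A4, SLC25A5 and SLC25A6 are shown first, because they share 1 transport role and 1 sign in both treatments, and because their likeness bears on how reads are assigned. Their coding sequences are equally long, at 897 bases, and 624 positions (69.6%) have the same base in all of them. The codon-aligned stretch of 60 bases with the most shared positions covers coding bases 76 to 135, counted from the A of the start codon, and holds the codons of a family signature motif. Capitals mark the 8 positions that are not the same in all of them. The sequences are from GENCODE release 29 transcripts on GRCh38, read 5′ to 3′ on the coding strand, from SLC25A4 on chromosome 4 and the others on chromosome X.
SLC25A4: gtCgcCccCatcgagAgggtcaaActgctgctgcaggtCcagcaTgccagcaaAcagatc
SLC25A5: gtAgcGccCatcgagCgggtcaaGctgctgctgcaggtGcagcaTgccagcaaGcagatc
SLC25A6: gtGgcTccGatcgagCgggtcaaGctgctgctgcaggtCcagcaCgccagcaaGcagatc
No run of 50 coding bases of any of the 3 genes occurs in another of them.

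No SLC25 carrier passed the threshold of an adjusted p under 0.05 in either treatment. In TPA 0 of 40 members with an adjusted p were called, where 0.113% of all 19417 such genes were. In DMSO 0 of 39 were called, where 0.108% of 13007 genes were. With backgrounds this low, a count of 0 among so few genes is near what all genes show. At an unadjusted p under 0.05, by the authors' p-values, 1 of the 40 members passed in TPA and 0 of 39 in DMSO, against 3.99% and 3.04% of all genes. Members were about evenly split by sign. In TPA 26 of 47 members with a p-value were positive. Their median over the authors' deposited table's log2 fold changes was 0.0087, beside 0.00054 for all genes with a p-value. Among genes with an adjusted p in TPA, the median was 0.012 for members and 0.0108 for all. In DMSO 21 of 39 were positive, with a median of 0.031 in the authors' deposited table, beside 0.0075 for all genes. The mean over members in TPA was -0.0062, on the other side of 0 from the median.

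**Figure D1:**
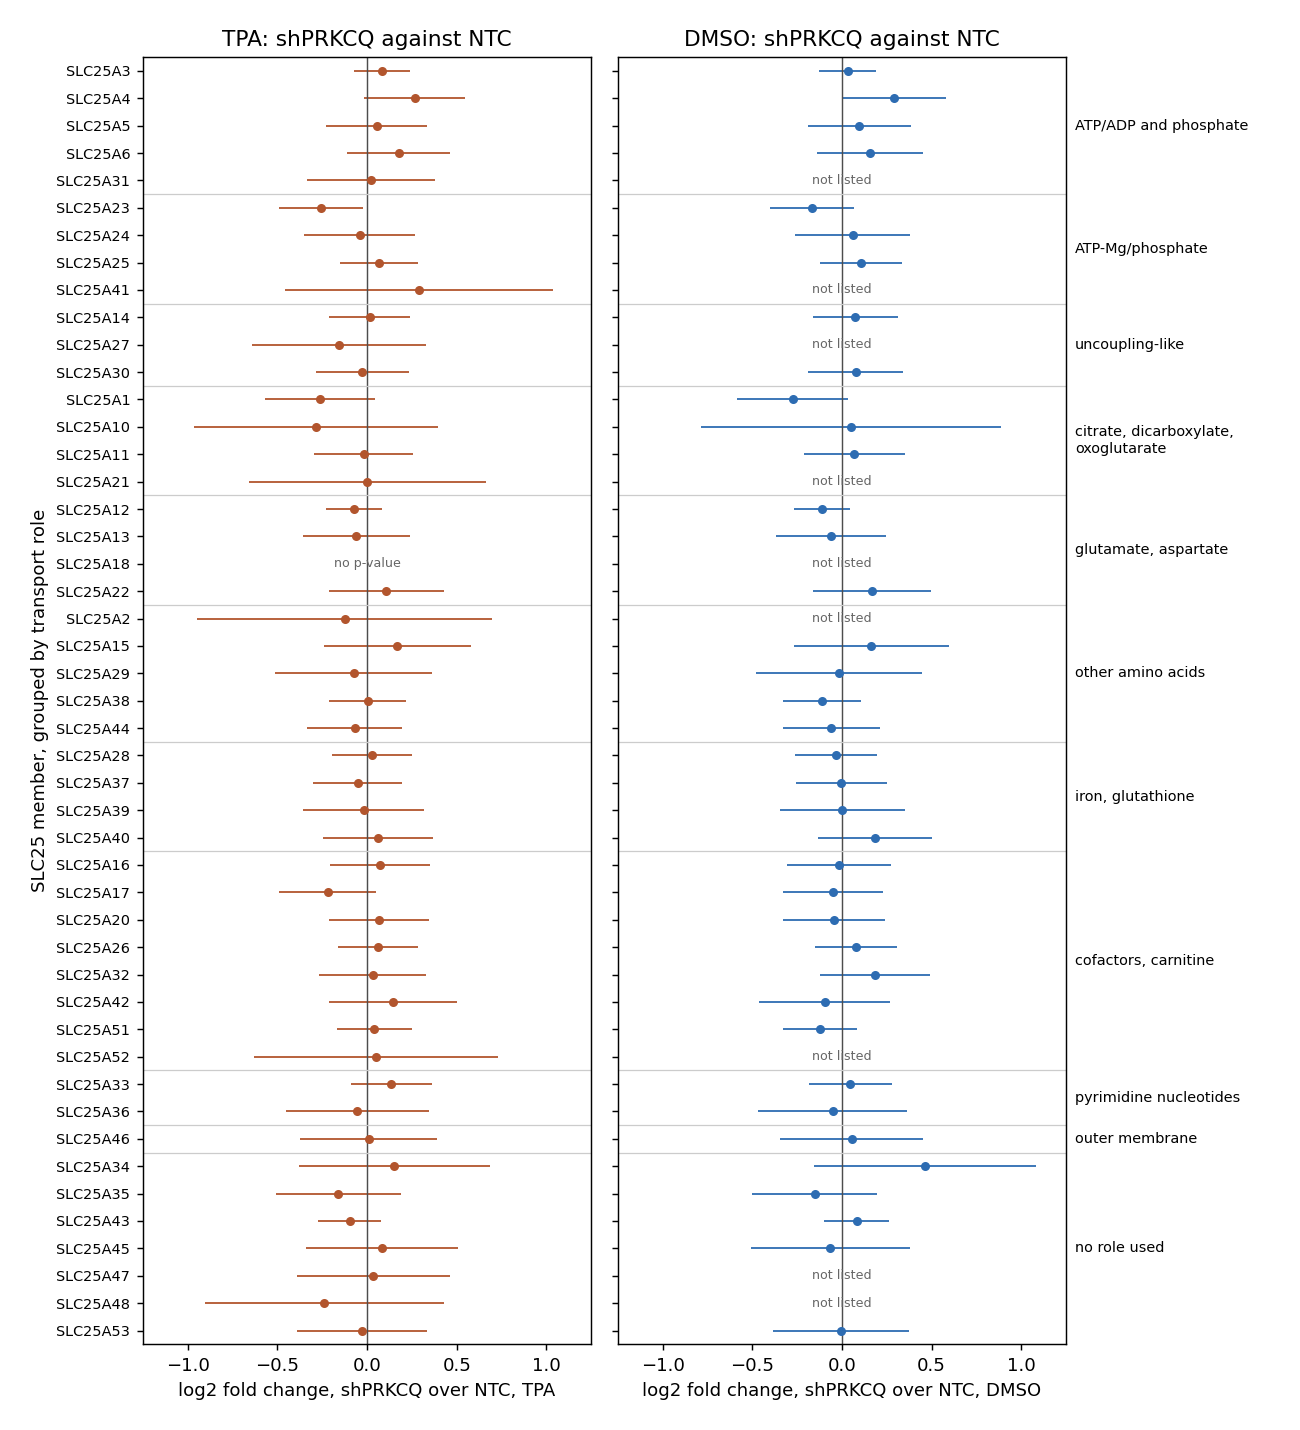
Log2 fold change of 47 SLC25 members, shPRKCQ over NTC, in TPA (left) and DMSO (right), with members grouped by transport role down the page. Points are the authors' fold changes, bars are 95% intervals from the implied standard error, and only the interval of SLC25A23 in TPA lies clear of 0.

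A standard error was implied for each gene from the fold change and the p-value. Its median over members was 0.156 in TPA and 0.149 in DMSO, and it was smallest for SLC25A12, at 0.0793 in TPA and 0.0804 in DMSO. The 95% interval lay inside a 2-fold change, a log2 value of -1 to 1, for 46 of 47 members in TPA and 38 of 39 in DMSO. The exceptions were SLC25A41 in TPA, with an upper bound of 1.04, and SLC25A34 in DMSO, with an upper bound of 1.08. Intervals inside -0.5 to 0.5 were found for 32 of 47 members in TPA and 31 of 39 in DMSO. The 47 include 7 without an adjusted p in TPA. Of the 40 members with an adjusted p there, 30 had such an interval. In TPA, 1622 genes share the 1 value of SLC25A31, so its interval is not particular to this gene. Whether the authors shrank fold changes towards 0 is not given. If they did, the intervals may understate the change.

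The carriers of the last steps of ATP synthesis were positive without exception in both tables, though none of them passed. They are only 5 genes in TPA and 4 in DMSO. Of all genes with an adjusted p, 53% were positive in TPA and 52.3% in DMSO. SLC25A4 (chromosome 4, GRCh38), the ATP/ADP carrier ANT1 typical of muscle, was at 0.27 ± 0.144 in TPA and 0.29 ± 0.149 in DMSO in the authors' deposited tables (implied SE). This is 120.3% of the NTC level in TPA and 122.3% in DMSO, with unadjusted p = 0.0639 and 0.0508 and an adjusted p that rounds to 1 in both. SLC25A6, the carrier ANT3, was at 0.18 in TPA and 0.16 in DMSO in the authors' deposited tables (unadjusted p = 0.227 and 0.297). SLC25A5, the carrier ANT2 typical of proliferating cells, was at 0.054 in TPA and 0.096 in DMSO in the authors' deposited tables. SLC25A3, which brings in the phosphate for ATP synthesis, was at 0.085 in TPA and 0.031 in DMSO in the authors' deposited tables, with an implied SE near 0.08 in both. SLC25A31, the germ cell ATP/ADP carrier, has a p-value in TPA alone, and its value of 0.021 in the authors' deposited table is the one shared by 1622 genes.

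Among the calcium-regulated ATP-Mg/phosphate carriers, which set the size of the matrix adenine nucleotide pool, SLC25A23 had the smallest unadjusted p of all members in TPA. SLC25A23 (chromosome 19, GRCh38) was at -0.26 ± 0.119 in TPA and -0.17 ± 0.12 in DMSO in the authors' deposited tables (implied SE; unadjusted p = 0.031 and 0.162). This is 83.7% of the NTC level in TPA and 89.1% in DMSO, and the adjusted p rounds to 1 in both. Nearer to 0 among its relatives, SLC25A25 was at 0.067 in TPA and 0.11 in DMSO, and SLC25A24 at -0.041 and 0.060, in the authors' deposited tables. SLC25A41, a relative without the calcium-binding part, has no row in DMSO and was the highest member in TPA at 0.29 in the authors' deposited table, with an implied SE of 0.381.

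The citrate and dicarboxylate carriers held the lowest member of each table. SLC25A1 (chromosome 22, GRCh38), which exports citrate for fatty acid and sterol synthesis, was at -0.26 ± 0.156 in TPA and -0.27 ± 0.158 in DMSO in the authors' deposited tables (implied SE; unadjusted p = 0.0929 and 0.0836). That is 83.4% of the NTC level in TPA and 82.7% in DMSO, without a call in either. SLC25A10, the dicarboxylate carrier, was the lowest member in TPA at -0.29 and stood at 0.051 in DMSO in the authors' deposited tables, with implied SEs of 0.348 and 0.427. SLC25A11, the oxoglutarate-malate carrier, was at -0.017 in TPA and 0.069 in DMSO, and SLC25A21, the oxodicarboxylate carrier, was at 0.0016 in TPA, in the authors' deposited tables.

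Amino acid carriers were of mixed sign, with 3 of 8 positive in TPA and 2 of 7 in DMSO, and none passed. The aspartate-glutamate carriers of the malate-aspartate shuttle, SLC25A12 and SLC25A13, were at -0.071 and -0.059 in TPA, and at -0.11 and -0.062 in DMSO, in the authors' deposited tables. The unadjusted p of SLC25A12, aralar, was 0.372 in TPA and 0.168 in DMSO. The glutamate carrier SLC25A22 was at 0.11 in TPA and 0.17 in DMSO in the authors' deposited tables, and its relative SLC25A18 is listed without a value. SLC25A15, the ornithine carrier of the urea cycle, was at 0.17 in TPA and 0.16 in DMSO, and SLC25A2, its close relative, at -0.12 in TPA, in the authors' deposited tables. SLC25A38, a glycine carrier needed for haem synthesis, was at 0.0033 in TPA and -0.11 in DMSO in the authors' deposited tables. SLC25A29 and SLC25A44, carriers of basic and of branched-chain amino acids, lay between -0.075 and -0.019 over both treatments in the authors' deposited tables.

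Of the carriers for iron and glutathione, 2 of 4 were positive in each treatment. SLC25A28 and SLC25A37, the iron importers mitoferrin-2 and mitoferrin-1, and SLC25A39 lay between -0.053 and 0.028 over both treatments in the authors' deposited tables. SLC25A40, which like SLC25A39 takes up glutathione, was at 0.062 in TPA and 0.18 in DMSO in the authors' deposited tables (unadjusted p = 0.694 and 0.253).

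Cofactor carriers were the largest role group, with 7 of 9 members positive in TPA and 3 of 8 in DMSO. SLC25A17, a peroxisomal member that carries coenzyme A and related cofactors, was at -0.22 in TPA and -0.051 in DMSO in the authors' deposited tables (unadjusted p = 0.114 and 0.722). SLC25A42, a coenzyme A carrier, was at 0.14 in TPA and -0.096 in DMSO in the authors' deposited tables. SLC25A51, the mitochondrial NAD carrier, was at 0.041 in TPA and -0.12 in DMSO, and its close copy SLC25A52 at 0.050 in TPA, in the authors' deposited tables. Further members were SLC25A20, the carnitine-acylcarnitine carrier of fatty acid oxidation, SLC25A26, the S-adenosylmethionine carrier, SLC25A32, a folate and FAD carrier, and SLC25A16. These 4 lay between 0.032 and 0.073 in TPA and between -0.045 and 0.18 in DMSO in the authors' deposited tables.

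The pyrimidine nucleotide carriers SLC25A33 and SLC25A36 were at 0.14 and -0.055 in TPA and at 0.046 and -0.052 in DMSO in the authors' deposited tables. The uncoupling-protein-like members SLC25A14, SLC25A27 and SLC25A30 lay between -0.16 and 0.015 in TPA, and the first and the last of them at 0.074 and 0.076 in DMSO, in the authors' deposited tables. SLC25A46, an outer membrane member that shapes mitochondria, was at 0.0087 in TPA and 0.054 in DMSO in the authors' deposited tables. Among members whose role is not used here, SLC25A34 was at 0.15 ± 0.273 in TPA and 0.46 ± 0.316 in DMSO in the authors' deposited tables, which made it the highest member in DMSO (unadjusted p = 0.575 and 0.143). The other 6, SLC25A35, SLC25A43, SLC25A45, SLC25A47, SLC25A48 and SLC25A53, lay between -0.24 and 0.083 in TPA in the authors' deposited table. The 4 of them with a DMSO row lay between -0.15 and 0.081 in the authors' deposited table.

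**Figure D2:**
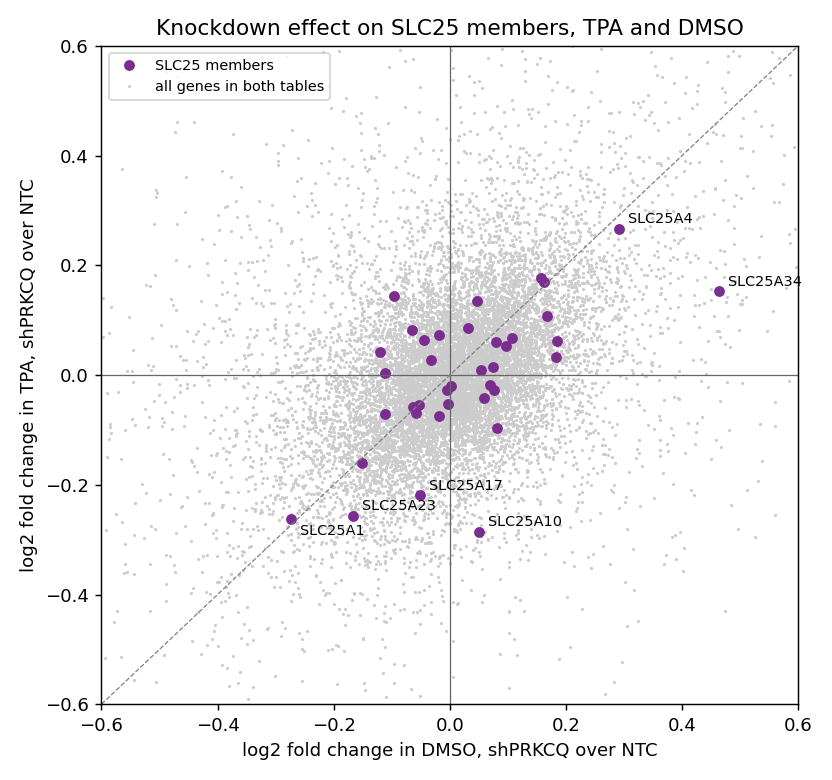
Log2 fold change of shPRKCQ over NTC in TPA (vertical) against DMSO (horizontal) for SLC25 members in both tables, over all genes within 0.6 of 0 (small points); the dashed line marks equal values. SLC25A4 lies high and SLC25A1 low on both axes, while SLC25A10 and SLC25A17 are lower on the TPA axis than on the DMSO axis. A single member is not drawn.

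Whether the knockdown acted differently under TPA was asked with the difference of the fold changes, TPA minus DMSO, over the implied standard errors. The test takes the tables as independent; they have no library in common, and whether cultures were shared is not given. By this test 0 of 39 members had an adjusted p under 0.05, as had 0% of 13007 genes, and 0 of 39 passed at an unadjusted p under 0.05, against 0.438% of all genes. SLC25A43 came nearest, with a difference of -0.18 ± 0.129 (SE; unadjusted p = 0.165), from values of -0.097 in TPA and 0.081 in DMSO in the authors' deposited tables. SLC25A51 had a difference of 0.16 ± 0.15 (unadjusted p = 0.28). The widest difference in size was that of SLC25A10, at -0.34, with an interval from -1.42 to 0.743. The robust SD of the difference z over the 13007 genes was 0.579. The unscaled p-values of this test therefore look conservative, and a count of 0 from them says little. With p-values rescaled by this robust SD, 24 of all genes and 0 members were called.

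Across the 39 members in both tables, which are genes and not replicates, Pearson's r between the fold changes in TPA and DMSO was 0.568 and Spearman's rho was 0.484. Over all 13007 genes these were 0.381 and 0.398. Of the 39 members, 25 had the same sign in both treatments, 14 positive and 11 negative, which is 64.1% of members beside 64.3% of all genes. The points share the fitting pipeline and the lines.

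**Figure D3:**
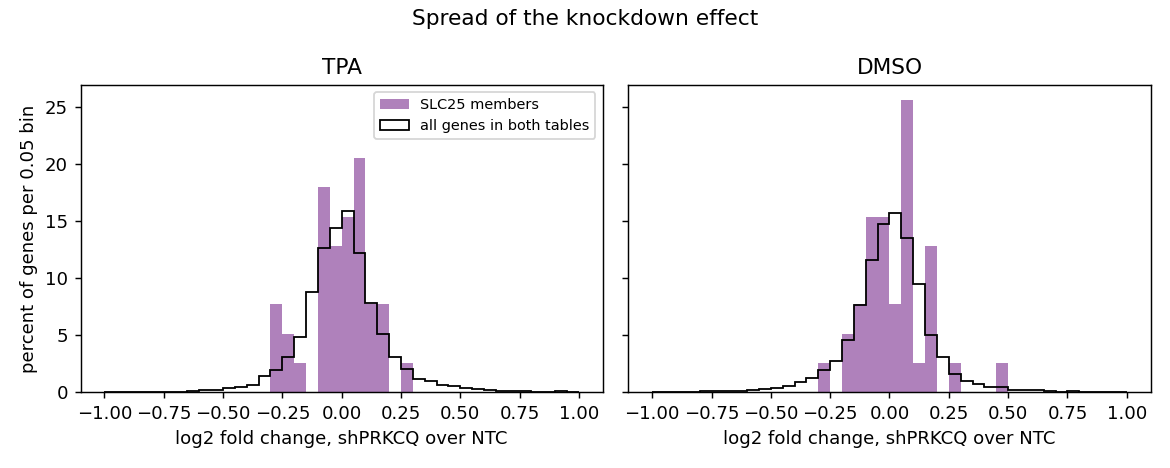
Distribution of log2 fold changes, shPRKCQ over NTC, of the 39 SLC25 members (filled) and all 13007 genes in both tables (line), as percent of genes per bin of 0.05, for TPA (left) and DMSO (right); genes beyond 1 are not drawn. Members lie between -0.29 and 0.27 in TPA and between -0.27 and 0.46 in DMSO, inside the range of all genes.

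The spread of the family was narrower than that of the genes in both tables, as a description. Its SD was 0.128 in TPA and 0.134 in DMSO, where all 13007 genes had 0.178 and 0.211. The median size of a change, regardless of sign, was 0.069 in TPA and 0.076 in DMSO for members, and 0.088 in both for all genes. The median implied SE was also smaller for members, at 0.144 against 0.167 in TPA and 0.149 against 0.172 in DMSO.

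Members differ in how far their reads can be told from those of other genes. From the coding sequence of 1 annotated transcript per member, 11 of 48 members had at least 1 window of 50 bases that also occurs in a transcript of another gene in GENCODE release 29. SLC25A10 (chromosome 17, 81712236 to 81721016, plus strand, GRCh38) shared 87.2% of its windows with AC139530.2, an annotated protein-coding gene that overlaps it on the same strand (81703371 to 81720539). SLC25A10 also had the largest implied SE of the 39 members in both tables. For TPA the authors' deposited table gives AC139530.2 a value of -0.0079, with an implied SE of 0.494, and it has no DMSO row. SLC25A32 shared 82.9% of its windows with the overlapping gene AC012213.5, and SLC25A33 70.7% with AC135977.1, a processed pseudogene on chromosome 11. Their implied SEs in TPA were 0.152 and 0.116, beside a median of 0.156 over members in TPA. Whether shared windows bear on the implied SE was not tested. SLC25A51 and SLC25A52 are 94.5% identical over their coding sequences, and SLC25A51 shared 35.6% of its windows with SLC25A52. For these 5 genes the counting could split reads, and their fold changes are uncertain to that extent. SLC25A5 shared 6.6% and SLC25A6 2.24% of their windows, with processed pseudogenes, and SLC25A4, SLC25A23 and SLC25A1 shared none.

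**Figure D4:**
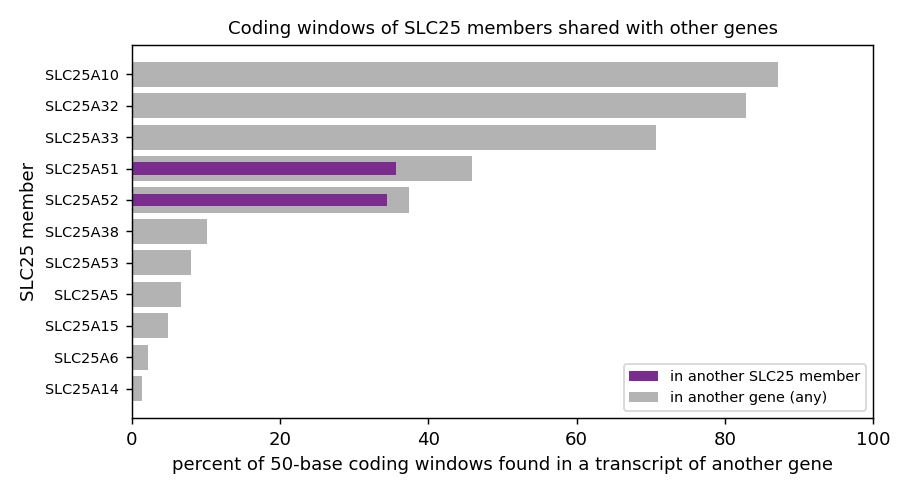
Percent of the 50-base coding windows of each SLC25 member that occur in a transcript of another gene (grey) or of another SLC25 member (purple), for the 11 members with any. SLC25A10 has the largest share at 87.2%, and sharing within the family is limited to SLC25A51 and SLC25A52.

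Carriers of the family under other names gave no call. MTCH1, an outer membrane member, was at 0.0086 in TPA and 0.098 in DMSO, and MTCH2, an outer membrane insertase, at -0.0015 and 0.072, in the authors' deposited tables. For TPA the authors' deposited table has UCP1, the uncoupling protein of brown fat, at 0.20 (unadjusted p = 0.678). The uncoupling protein UCP2 was at 0.13 in TPA and -0.093 in DMSO, and UCP3 at 0.82 and 0.39, in the authors' deposited tables, which give neither a p-value.

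Mitochondrial transport genes outside the family likewise had no call, and a few passed at an unadjusted p under 0.05. SFXN1, a sideroflexin that carries serine into mitochondria, was at -0.48 ± 0.122 in TPA and -0.41 ± 0.125 in DMSO in the authors' deposited tables (implied SE; adjusted p = 0.0623 and 0.289). The other 6 genes of its list, SFXN2 to SFXN5 and the pyruvate carrier subunits MPC1 and MPC2, had an unadjusted p above 0.05 in both treatments. MCU, the pore of the mitochondrial calcium uniporter, was at 0.23 ± 0.0925 in TPA and 0.36 ± 0.0945 in DMSO in the authors' deposited tables (implied SE; adjusted p = 0.949 and 0.102). SMDT1, its essential regulator EMRE, was at -0.094 in TPA and -0.23 in DMSO in the authors' deposited tables (unadjusted p = 0.364 and 0.0287). VDAC2, a channel of the outer membrane, was at 0.097 in TPA and 0.19 in DMSO in the authors' deposited tables (unadjusted p = 0.26 and 0.0337).

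The machinery that imports carrier proteins, the TOM complex, the small TIM chaperones and the TIM22 complex, had 5 of 16 genes positive in TPA and 9 of 16 in DMSO, with medians of -0.047 and 0.0062 in the authors' deposited tables. None of these 16 passed at an unadjusted p under 0.05. Nor did any of the 4 malate-aspartate shuttle enzymes, with medians of -0.058 in TPA and 0.013 in DMSO, or any of the 8 genes of haem and iron-sulphur synthesis, with medians of -0.00066 and 0.026, in the authors' deposited tables. Carnitine shuttle enzymes, which work with SLC25A20, had a median of 0.14 over 5 genes in TPA and -0.0097 over 4 in DMSO in the authors' deposited tables, and none passed at an unadjusted p under 0.05.

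Levels are not in these tables, so the identity of the cells could be checked only by which markers were tested. All 13 T cell markers have an adjusted p in TPA, while 7 of 13 are listed in DMSO, where CD3E, CD2, CD4, CD5, CD7 and LCK have no row. The DMSO table therefore lacks genes that the TPA table tests, and a carrier without a DMSO row is not shown to be absent from these cells. Of markers of other cells, 5 of 7 B cell, 4 of 7 myeloid and 6 of 7 epithelial or stromal genes have an adjusted p in TPA, and 2, 1 and 1 of 7 in DMSO. For TPA, 12 of 13 T cell markers were positive, beside 53% of all genes with an adjusted p. Their median in the authors' deposited table was 0.19, with a range of -0.071 to 0.69, and CD5 had an unadjusted p of 0.0167. Over the B cell markers 5 of 7 were positive, from -1.10 for CD79B (unadjusted p = 0.000773) to 0.34, in the authors' deposited table. Of the myeloid markers 6 of 7 were positive, from -0.021 to 0.42 in the authors' deposited table. Epithelial and stromal markers were split, 3 positive and 3 negative, from -0.46 to 0.80 in the authors' deposited table, and COL1A2 and KRT5 had unadjusted p-values of 0.0369 and 0.0437. In DMSO the 7 listed T cell markers were split, 4 positive and 3 negative, with a median of 0.028 in the authors' deposited table. No marker of these lists had an adjusted p under 0.05 in either treatment. Their part in the carriers' values was not tested.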

How the data were processed

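RNA sequencing of poly(A)-selected, strand-specific libraries, per the labels' protocols, reached this work as 2 comparison tables. Per the file headers, the authors deposited per gene its log2 fold change with the p-value before and after adjustment. Tools named in the submitters' processing notes, without roles, are DESeq2 1.18.1, RSEM 1.3.0 and STAR 2.5.3a, with the build GRCh38. The sources used here do not give the model, covariates, strand setting, use of molecular identifiers or shrinkage. The deposited adjusted p-values differ from a Benjamini-Hochberg adjustment by a relative 0.00451 at most. Depth per library is unknown, and p-values measure the spread between these libraries as the authors fitted it.

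All gene identifiers matched GENCODE release 29. A signed z-value was computed from each p-value, from the fold change over z an implied standard error, and from 1.96 times it a 95% interval. Differences between treatments were tested as described, two-sided, against a normal distribution, with Benjamini-Hochberg adjustment over 13007 genes. The computation was tested on simulated data with planted differences larger than that of any member. How well it finds differences of the size seen in members was not assessed. Coding sequences were aligned globally with biopython 1.88. Protein features were not computed, as no protein table was used here. Python 3.11.15, numpy 2.4.6, scipy 1.17.1, pandas 2.3.3 and matplotlib 3.10.9 were used.

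Members, role groups and lists were chosen with earlier results of these data known. Members are reported in their role groups; 1 member enters the counts and summaries but its own values are not reported here. Full statistics were planned for members past an unadjusted p under 0.05. Where these were fewer than 5 in a table, the 5 with the smallest p were taken. The extremes of each table and the 3 smallest p of the difference were to be named too. Not every statistic is printed for each of these members.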

Additional observations from a re-analysis of the deposited data

How the results depend on the processing

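The count of called SLC25 members was 0 in TPA and in DMSO with an adjusted p under 0.01 or under 0.1, with an absolute log2 fold change of at least 1, with an adjustment over every gene with a p-value or over genes in both tables, and with p-values rescaled by the robust SD of z. Rescaling raised the calls over all genes to 113 in TPA and 109 in DMSO, and the smallest adjusted p of a member was then 0.391 and 0.308. The count of members that differed between TPA and DMSO was 0 with differences of z-values and with rescaled p-values (smallest adjusted p = 0.623). Taking the mean in place of the median moved the member summary to -0.00623 in TPA, with a change of sign, and to 0.0273 in DMSO. Members with an adjusted p, an alternative chosen after seeing the data, had a median of 0.012 in TPA. All genes with an adjusted p had a median of 0.0108 there. The cause of the move was not tested. Over members with a p-value in both tables the medians did not move. No paired analysis was possible because the deposited comparisons give no value per library. Leaving out replicates, other normalizations and count tests were not run for the same reason. The robust SD of z over genes with an adjusted p was 0.84 in TPA and 0.753 in DMSO. The p-values therefore look conservative, and the implied intervals may be wide. With no library totals, limits set by depth were not assessed.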
